A study of Mus musculus with 15 samples.

Results

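The genes described here are those of the proteasome, its regulatory particles and the chaperones that assemble it, in 6DT1 cells, a mouse mammary cancer line. They were taken by symbol: every gene of both gene tables whose symbol starts with Psma, Psmb, Psmc, Psmd, Psme, Psmf or Psmg followed by a digit, without Psmb8, Psmb9 and symbols holding -ps. This gave 45 genes of 13840, and all 45 were listed in both tables, which held 13501 genes for OE and EV and 13669 genes for KD and shScr. Of them 7 encode the alpha ring and 7 the constitutive beta ring of the 20S core, 1 (Psmb10) an inducible beta subunit, 6 the ATPases and 11 the other subunits of the 19S particle, 3 (Psmd5, Psmd9 and Psmd10) chaperones of the 19S base, 4 (Psmg1 to Psmg4) chaperones of the 20S core, 4 (Psme1 to Psme4) activators and 1 (Psmf1) an inhibitor. The last gene, Psmc3ip, fits the symbol rule only: it encodes a protein of meiotic recombination, and 44 genes remain without it.

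The 15 libraries came from 5 lines of 3 libraries each. OE cells carried a Smarcd1 overexpression vector and EV cells, their control, the empty vector, both kept in blasticidin. KD6 and KD4 cells each carried 1 hairpin against Smarcd1 and shScr cells, their control, a scrambled hairpin, all kept in puromycin. All 5 lines were otherwise untreated wild-type 6DT1 cells grown on plastic and harvested 24 h after plating. Each construct is represented by 1 transduced line, so a construct and its line cannot be told apart, and the replicates are separate passages of that line plated on successive days. The p values below therefore measure the spread between passages, pooled over the lines of each fit, and not that between separately transduced lines of a construct. Where both hairpin lines form 1 group, the spread also takes in the difference between these lines.

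Smarcd1, which encodes part of the BAF chromatin remodeller, was at 70.4, 65.0 and 61.7 CPM (read counts scaled to library totals by the authors) in OE libraries, against 31.9, 27.2 and 29.9 CPM in EV libraries. It was at 9.07, 9.05 and 9.27 CPM in KD4 libraries and at 13.2, 14.8 and 15.1 CPM in KD6 libraries, against 14.5, 16.5 and 15.04 CPM in shScr libraries. Smarcd1 was thus higher in OE than in EV (log2 change 1.12, limma adjusted p = 0.00355) and lower in KD4 than in shScr (-0.69, adjusted p = 0.001), whereas KD6 and shScr libraries overlapped (-0.09, adjusted p = 0.701), so that KD6 stands below for the label of those libraries and not for a measured loss of the transcript. Smarcd1 protein, which the study examined by western blot in its hairpin lines, was not used here. The OE over EV call did not hold without OE replicate 2 (adjusted p = 0.0533) or without EV replicate 3 (adjusted p = 0.052). EV replicate 1 stood apart from the other OE and EV libraries, with a score of 23.7 on the first principal component against -11.3 to -1.07 in the others, and results that involve it are also given without it. Mitochondrially encoded transcripts made up 6.12 to 6.71% of CPM in OE, 5.71 to 6.35% in EV, 4.56 to 5.41% in KD6, 4.68 to 5.06% in KD4 and 4.47 to 5.64% in shScr. Of the epithelial markers Krt8, Krt18 and Krt19 were listed whereas Epcam, Cdh1 and Cldn4 were not, and none of the fibroblast or adipocyte markers examined was listed. Of the immune markers Cd68 averaged 56.2 CPM in OE, 62.7 in EV, 38.4 in KD6, 30.2 in KD4 and 35.0 in shScr and Cd14 8.87 to 13.04 CPM over the lines, whereas Ptprc and Cd3e were not listed. Of the endothelial markers Kdr was listed for OE and EV only, at 0.99 and 1.37 CPM, and Pecam1 and Cdh5 were not. The part of other cells in the results was not tested.

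The proteasome degrades proteins that carry ubiquitin chains. Its 20S core is a barrel of outer alpha rings, which gate the entry, and inner beta rings, which hold the proteolytic sites. The 19S particle caps the barrel: its non-ATPase subunits bind and remove ubiquitin and its ATPase ring unfolds the substrate and feeds it in, while other activators dock on the same alpha rings. In mammals the genes of these subunits are known to be induced together through Nfe2l1 when proteasome activity is inhibited.

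By class medians the core subunits had the highest levels. Levels were compared between genes per kilobase of the main transcript, for the 43 genes whose main transcript had a length in the annotation table (Psma3 and Psmd8 had none). Psmb6, the beta subunit with caspase-like activity, had the highest level at 156 CPM per kb, followed by the alpha subunit Psma7 at 138 and the beta subunit Psmb1 at 127 CPM per kb. The median level was 89.5 CPM per kb for the beta ring, 69.3 for the alpha ring, 57.2 for the 19S non-ATPase subunits and 50.7 for the 19S ATPases. The medians were 32.2 CPM per kb for the activators, 15.5 for the 20S chaperones and 14.9 for the 19S chaperones, with 16.1 for the inducible subunit gene Psmb10 and 5.69 for the inhibitor Psmf1. The classes overlapped: the activator Psme1 was at 99.3 CPM per kb, above all but 3 genes, and the core genes Psma2, Psma5 and Psmb5 were at 32.3, 34.0 and 34.8 CPM per kb, below 15 of the 16 measured 19S subunit genes. Psmc3ip was at 4.76 CPM per kb.

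The spread between libraries was small for most of these genes. Over the 15 libraries the coefficient of variation had a median of 7.27% for the 45 genes, from 2.98% for the ATPase gene Psmc1 to 16.4% for the 20S chaperone gene Psmg4, against a median of 11.4% for all genes of both tables. The highest library exceeded the lowest by 1.10 to 1.91 times, with a median of 1.32, against 1.498 for all genes. The 10205 genes with a mean of 5 to 300 CPM, a range of levels nearer to theirs, had a median coefficient of variation of 9.99% and a median ratio of 1.43. These spreads set levels of separately deposited tables side by side and are given as a description.

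Promoters are shown for 6 genes on which the results below turn: Psma2, Psmb3 and Psmb6 of the 20S core, Psmd2 and Psmd11 of the 19S particle and the activator Psme3. They are RefSeq promoter windows on GRCm38.p6, each the 250 bases before the annotated start, read 5′ to 3′ on the gene's strand. RefSeq promoters were found for 38 of the 45 genes. Capitals mark matches on either strand to 4 motifs: CCAAT, the ETS motif CCGGAAG, the antioxidant response element TGACNNNGC and the heat shock motif GAANNTTC. The 3 core genes lie at chr13:14612992-14613241 (+ strand), chr11:97703184-97703433 (+ strand) and chr11:70525107-70525356 (+ strand), with CCAAT in Psma2 and Psmb3 and the antioxidant motif next to the start in Psmb6.
Psma2: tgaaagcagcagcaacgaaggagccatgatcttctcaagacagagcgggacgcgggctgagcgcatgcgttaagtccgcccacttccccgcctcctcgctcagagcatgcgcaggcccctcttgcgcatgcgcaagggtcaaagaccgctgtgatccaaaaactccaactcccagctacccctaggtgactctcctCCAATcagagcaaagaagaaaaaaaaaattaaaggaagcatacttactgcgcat
Psmb3: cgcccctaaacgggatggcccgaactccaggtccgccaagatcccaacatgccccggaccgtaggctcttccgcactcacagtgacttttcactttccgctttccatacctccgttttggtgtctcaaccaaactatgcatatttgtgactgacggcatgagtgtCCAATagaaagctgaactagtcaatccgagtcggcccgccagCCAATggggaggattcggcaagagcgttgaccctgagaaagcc
Psmb6: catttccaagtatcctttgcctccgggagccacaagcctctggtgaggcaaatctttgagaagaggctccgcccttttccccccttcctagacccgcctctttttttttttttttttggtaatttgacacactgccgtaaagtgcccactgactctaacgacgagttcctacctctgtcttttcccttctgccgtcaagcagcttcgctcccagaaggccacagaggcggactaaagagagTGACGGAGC
The windows of Psmd2, Psmd11 and Psme3 lie at chr16:20651402-20651651 (+ strand), chr11:80428365-80428614 (+ strand) and chr11:101315963-101316212 (+ strand), and each holds the ETS motif, which in Psmd2 and Psmd11 reads on the other strand as its reverse complement. Psme3 also holds CCAAT on the other strand.
Psmd2: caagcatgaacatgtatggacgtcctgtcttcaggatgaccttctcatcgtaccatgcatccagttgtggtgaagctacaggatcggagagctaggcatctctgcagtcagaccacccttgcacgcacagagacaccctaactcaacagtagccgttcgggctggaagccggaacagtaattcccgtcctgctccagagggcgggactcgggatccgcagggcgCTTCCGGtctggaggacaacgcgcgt
Psmd11: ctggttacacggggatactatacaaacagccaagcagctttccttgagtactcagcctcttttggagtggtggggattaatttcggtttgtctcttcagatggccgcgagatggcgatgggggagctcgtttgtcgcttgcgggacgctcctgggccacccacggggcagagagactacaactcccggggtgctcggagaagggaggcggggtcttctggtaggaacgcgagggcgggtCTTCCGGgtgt
Psme3: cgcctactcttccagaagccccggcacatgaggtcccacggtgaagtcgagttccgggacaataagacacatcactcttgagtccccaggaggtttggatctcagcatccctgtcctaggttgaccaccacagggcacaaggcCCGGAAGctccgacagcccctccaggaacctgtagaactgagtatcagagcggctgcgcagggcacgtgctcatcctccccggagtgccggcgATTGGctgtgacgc

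The share of promoters with a motif varied by class. Counted over promoters of 300 bases (the 250 before and 50 after the start), the ETS motif was found in 15 of the 38 genes (39.5%), in 9 of 14 19S genes (64.3%) and in 1 of 11 20S genes (9.09%), Psma6, against 8.86% of all 32851 promoters and 9.93% of all 27025 genes. CCAAT was found in 6 of 11 20S genes (54.5%), in 4 of 14 19S genes (28.6%) and in 13 of 38 genes in all (34.2%), against 37.4% of all promoters and 41.1% of all genes. The antioxidant motif occurred in 6 of 38 genes (15.8%, Psmb5, Psmb6, Psmc6, Psmd9, Psmd12 and Psme4), against 12.4% of all promoters and 13.99% of all genes, and the heat shock motif in 2 genes (5.26%, Psmb5 and Psmf1), against 7.86% of promoters and 9.04% of genes. No matches to different motifs overlapped in these promoters. These are matches of letters in a window, not measured binding, and genes with several promoters were counted once if any of them held the motif.

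The first comparison asked how proteasome transcripts stood with Smarcd1 raised. No gene of the 45 passed an adjusted p under 0.05 (limma, smallest adjusted p = 0.260), whereas 0.00741% of all genes did, which is 1 gene. The means nevertheless leaned one way for the core: all 14 20S genes were lower in OE than in EV, with a median log2 change of -0.14, 9 of them at an unadjusted p under 0.05. These 9 became 4 without OE replicate 1 and 5 without EV replicate 1 or without the intensity trend of the fit. Of the 17 19S genes 14 were lower, with a median of -0.04, and 39 of the 45 genes in all, with a median of -0.07, against 46.2% of all genes lower and a median of 0.01 over all genes. At an unadjusted p under 0.05, 13 of the 45 genes were lower, against 5.27% of all genes, and 2 higher, against 1037 of all 13501 genes. In 15 genes every OE library lay below every EV library, against 8.71% of all genes. Over these 6 libraries the pairs of 20S genes had a median Pearson r of 0.81, so the genes counted here are not independent of each other. In bulk RNA, fewer cells of a kind and less RNA per cell cannot be told apart.

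**Figure D1:**
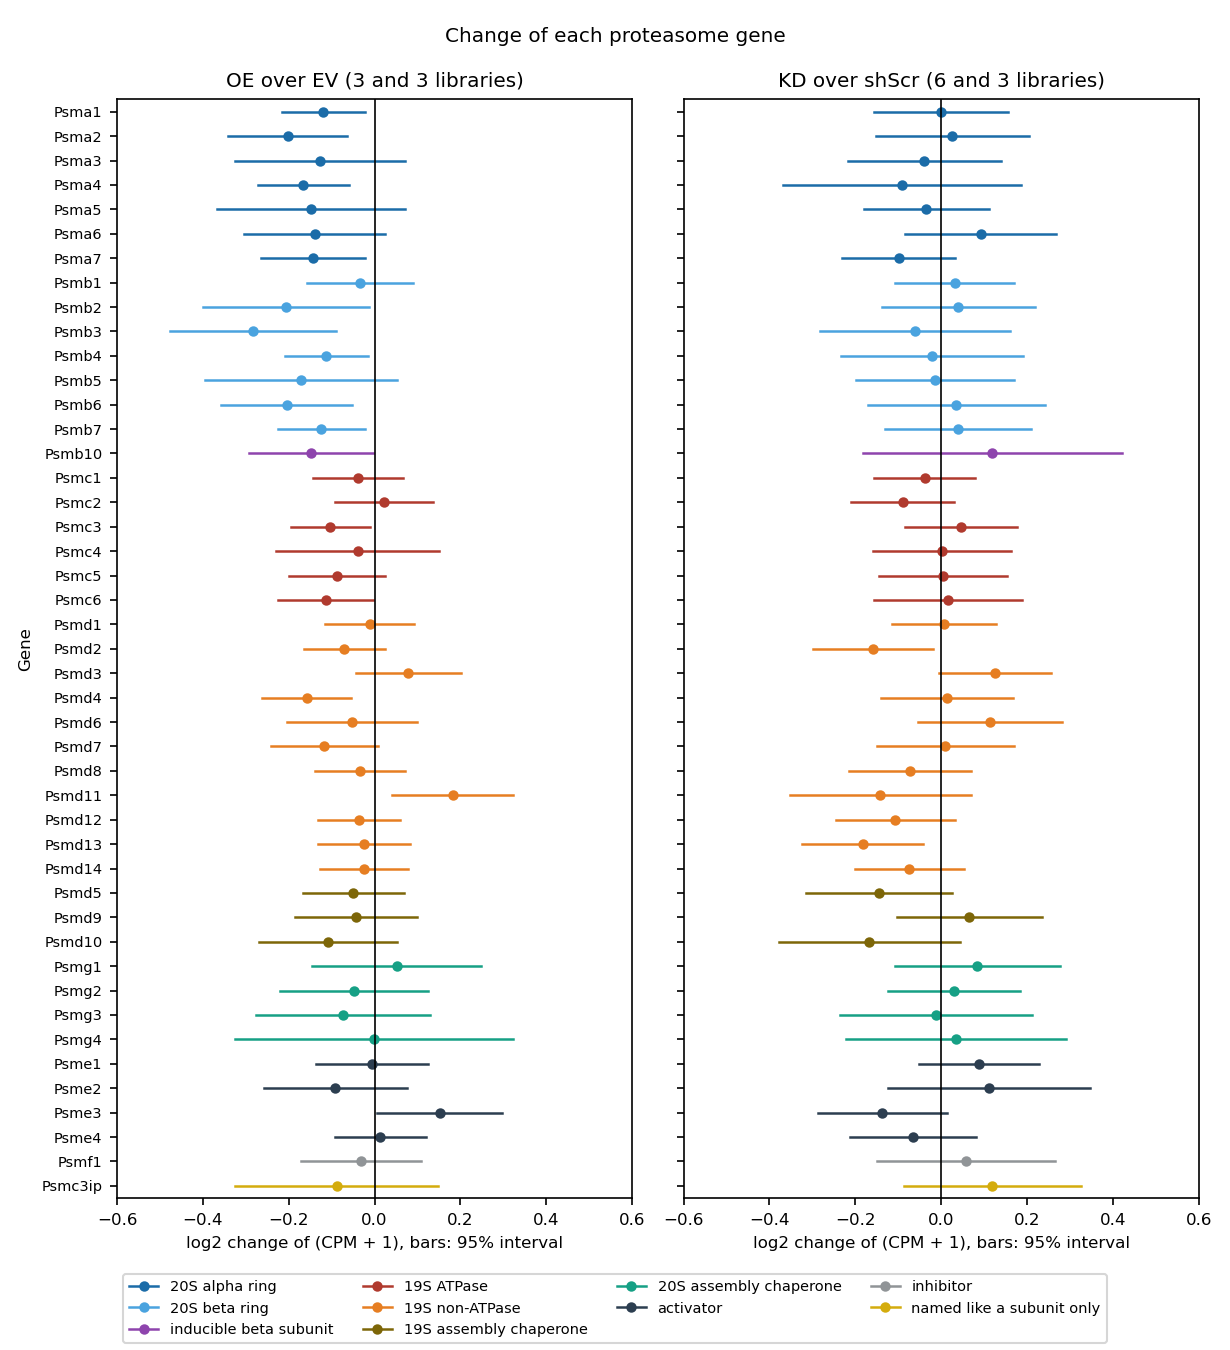
Log2 change of (CPM + 1) of each of the 45 genes, OE over EV on the left and KD over shScr on the right, with bars for the 95% confidence interval and colours for the class. On the left all 14 20S genes lie below 0 and Psmd11 and Psme3 above it, and on the right the genes lie on both sides of 0.

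In the alpha ring Psma4 had the smallest p of all 45 genes. It was at 82.7, 87.9 and 85.1 CPM in OE libraries and at 92.8, 98.8 and 95.6 CPM in EV libraries (-0.17 on the log2 scale with an SE of 0.05, limma adjusted p = 0.260). Every OE library lay below every EV library. Psma2, which had the largest change of the alpha ring, was at 81.6, 82.6 and 83.7 CPM in OE against 104, 89.7 and 92.3 CPM in EV (-0.20, adjusted p = 0.283). Here too the groups did not overlap, and the highest of the EV libraries was replicate 1. Psma1 and Psma7 did not overlap either, with log2 changes of -0.12 (adjusted p = 0.322) and -0.14 (adjusted p = 0.331), and the change of the 7 alpha genes ranged between that of Psma2 and that of Psma1.

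The beta ring held the largest change of all. Psmb3, a structural subunit of this ring, was at 52.8, 58.3 and 57.9 CPM in OE against 78.4, 65.8 and 62.9 CPM in EV (-0.28 on the log2 scale with an SE of 0.08, adjusted p = 0.283). The OE libraries were again all lower, by the widest margin against EV replicate 1. Psmb6 averaged 117 ± 5.10 CPM in OE and 136 ± 11.7 CPM in EV (SD, n = 3 each), a log2 change of -0.20 (limma adjusted p = 0.299). Psmb7, which carries the trypsin-like activity, and the structural subunit Psmb4 were lower by less, with log2 changes of -0.12 (adjusted p = 0.322) and -0.11 (adjusted p = 0.332). The exception in size was Psmb1, at 125, 127 and 123 CPM in OE against 119, 134 and 131 CPM in EV, a log2 change of -0.03 with overlapping groups. Psmb10, which replaces Psmb7 in the inducible core, was at 19.2, 19.9 and 18.8 CPM in OE and at 22.7, 21.4 and 20.6 CPM in EV (-0.15, adjusted p = 0.376).

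Summed over the 14 genes, the 20S core was at 1067, 1112 and 1107 CPM in OE libraries and at 1291, 1191 and 1178 CPM in EV libraries. The OE sums were all below the EV sums, and their mean of 1095 ± 24.9 CPM was 89.8% of the EV mean of 1220 ± 61.9 CPM (SD, n = 3 each). Without EV replicate 1 it was 92.5%, all 14 genes were still lower, with a median of -0.11, and 6 of the 45 genes were lower at an unadjusted p under 0.05, against 3.46% of all genes. The log2 change without it was -0.19 for Psma4 and Psmb3, -0.14 for Psma2 and Psmb6 and 0.12 for Psmd11. The 2 rings shared the difference evenly, with 513 ± 5.91 CPM in OE against 572 ± 31.4 CPM in EV for the alpha ring and 582 ± 19.4 against 649 ± 30.6 CPM for the beta ring, each 89.8%. The mitochondrial share, given above, overlapped between OE and EV and reached higher in OE, and its part in these sums was not tested.

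**Figure D2:**
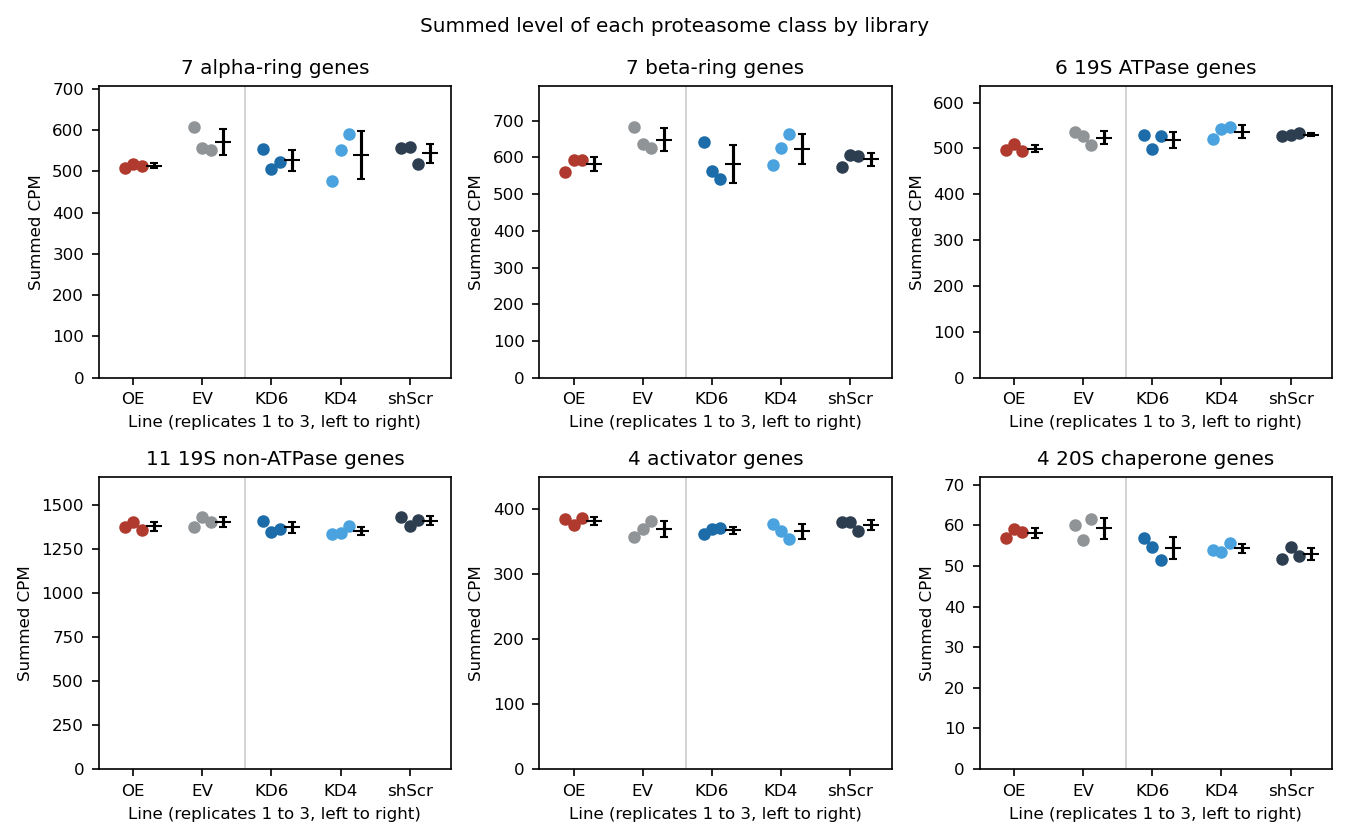
Summed CPM of 6 classes in each of the 15 libraries (points, replicates 1 to 3 from left to right within a line) with the mean and SD of each line (bars). The alpha and beta sums of all OE libraries lie below those of all EV libraries, and KD4 and KD6 libraries spread as widely among themselves as OE and EV differ.

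The 19S particle differed less. Its 17 genes summed to 1878 ± 33.6 CPM in OE and 1927 ± 29.7 CPM in EV, or 97.5% of EV (97.0% without EV replicate 1), with overlapping libraries. Psmd4, a ubiquitin receptor, was the gene of the smallest p, at 96.8, 101 and 101 CPM in OE against 116, 110 and 109 CPM in EV (log2 change -0.16, adjusted p = 0.274), and its groups did not overlap. The ATPases were lower in 5 of 6 genes, with a median of -0.06. Psmc6 had the largest change of them, -0.11, and Psmc3 the smallest p, with 105, 109 and 106 CPM in OE against 115, 115 and 114 CPM in EV.

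The other 6 genes had higher means in OE, against 7263 of all 13501 genes, and 2 of them did not overlap between the groups. How many of all genes had every OE library above every EV library was not counted, so these 2 genes cannot be called unusual. Psmd11, a lid subunit known to hold the 19S particle and the core together, was at 119, 121 and 114 CPM in OE libraries, against 95.3, 111 and 106 CPM in EV libraries (0.18 on the log2 scale with an SE of 0.06, adjusted p = 0.306). Psme3, the nuclear activator that works without ubiquitin, was at 132, 129 and 127 CPM in OE, against 106, 121 and 124 CPM in EV (0.15, adjusted p = 0.368). In both genes every OE library was above every EV library, and EV replicate 1 was the lowest. The 4 activators summed to 382 ± 6.27 CPM in OE and 369 ± 12.2 CPM in EV, or 103.4% (101.7% without EV replicate 1). Neither chaperone class held a gene at an unadjusted p under 0.05: Psmd10 had the largest change of the 19S chaperones (-0.11), Psmg3 that of the 20S chaperones (-0.07), and the inhibitor Psmf1 changed by -0.03.

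The intervals bound what these libraries could hide. All 45 genes had a 95% interval of the OE over EV change that stayed within a factor of 1.5 in either direction, the widest reaching a log2 change of -0.48 for Psmb3. Under 12 other settings 36 to 39 of the 45 genes and 13 or 14 of the 14 20S genes were lower in OE, and no gene passed.

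The second comparison set both hairpin lines, as 1 group of 6, against shScr. None of the 45 genes passed (limma, smallest adjusted p = 0.172), against 2.66% of all genes: 20 genes were lower and 25 higher, with a median of 0.00, against 50.2% of all genes lower. The class medians farthest below 0 were those of the 19S chaperones (-0.14) and of the 19S non-ATPase subunits (-0.07). Only Psmd13 and Psmd2, both lower, had an unadjusted p under 0.05, against 17.3% of all genes in either direction. Psmd2, the subunit on which ubiquitin shuttle factors dock, was at 276, 249 and 256 CPM in KD6 and at 226, 248 and 252 CPM in KD4, against 278, 280 and 283 CPM in shScr (log2 change -0.16, adjusted p = 0.227). All 6 KD libraries were lower than the shScr libraries, although KD6 replicate 1 was close to them, and the share of all genes with this order was not counted. Psmd13, a lid subunit, was at 54.2, 49.4 and 47.3 CPM in KD6 and at 47.5, 47.6 and 47.1 CPM in KD4, against 53.4, 54.8 and 58.5 CPM in shScr (-0.18, adjusted p = 0.172), and KD6 replicate 1 overlapped shScr.

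The other genes among the 10 with the smallest p in this comparison were the lid subunit genes Psmd3 (log2 change 0.12), Psmd12 (-0.11) and Psmd6 (0.11), the activator gene Psme3 (-0.14), the base chaperone genes Psmd5 (-0.14) and Psmd10 (-0.17), the alpha gene Psma7 (-0.10) and the ATPase gene Psmc2 (-0.09), none with an adjusted p under 0.31. All 45 genes had a 95% interval within a factor of 1.5. Summed over the class, the 20S core was at 1196, 1068 and 1064 CPM in KD6 and at 1057, 1179 and 1252 CPM in KD4, against 1130, 1164 and 1121 CPM in shScr. Both hairpin lines ran on either side of the shScr libraries, and the passages of 1 line differed by as much as OE differed from EV. The number of 20S genes lower in KD moved between 5 and 11 of 14 over 15 other settings.

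Taken one at a time against the same shScr libraries, which both hairpin comparisons share, the lines were also compared separately. In KD4 no gene passed, against 9.58% of all genes, and 7 genes had an unadjusted p under 0.05, against 24.7% of all genes. They were Psmd13 (log2 change -0.22, adjusted p = 0.071), Psmd2 (-0.21, adjusted p = 0.077), Psmd10 (-0.27, adjusted p = 0.087), Psme2 (0.25, adjusted p = 0.116), Psmb10 (0.31, adjusted p = 0.134), Psme4 (-0.14, adjusted p = 0.197) and Psmd12 (-0.15, adjusted p = 0.200). Psmd10, a chaperone of the 19S base, was at 16.2, 19.7 and 18.4 CPM in KD4, against 23.3, 20.5 and 22.4 CPM in shScr. Psme4, the activator known from sperm and DNA repair, was at 114, 124 and 120 CPM in KD4, against 136, 132 and 128 CPM in shScr. In both genes the KD4 libraries lay below the shScr libraries, as in 6 of the 45 genes, and in 5 they lay above. The share of all genes with such an order was not counted, so these genes cannot be called unusual. Psme1 (0.13), Psmd3 (0.13) and Psmd5 (-0.17) completed the 10 with the smallest p.

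In KD6 no gene passed, against 2.91% of all genes, and none had an unadjusted p under 0.05, against 15.3% of all genes. The smallest was that of Psmd13 (log2 change -0.14, adjusted p = 0.374), followed by Psme3 (-0.14), Psmc2 (-0.11), Psmd3 (0.12), Psmd2 (-0.11), Psma7 (-0.10), Psmc3ip (0.16), Psmd5 (-0.12), Psmd8 (-0.09) and Psmd11 (-0.13). The means of 32 of the 45 genes were lower in KD6 than in shScr, with a median of -0.02, against 6731 of all 13669 genes lower. Over 15 other settings the number among the 45 moved between 22 and 35.

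**Figure D3:**
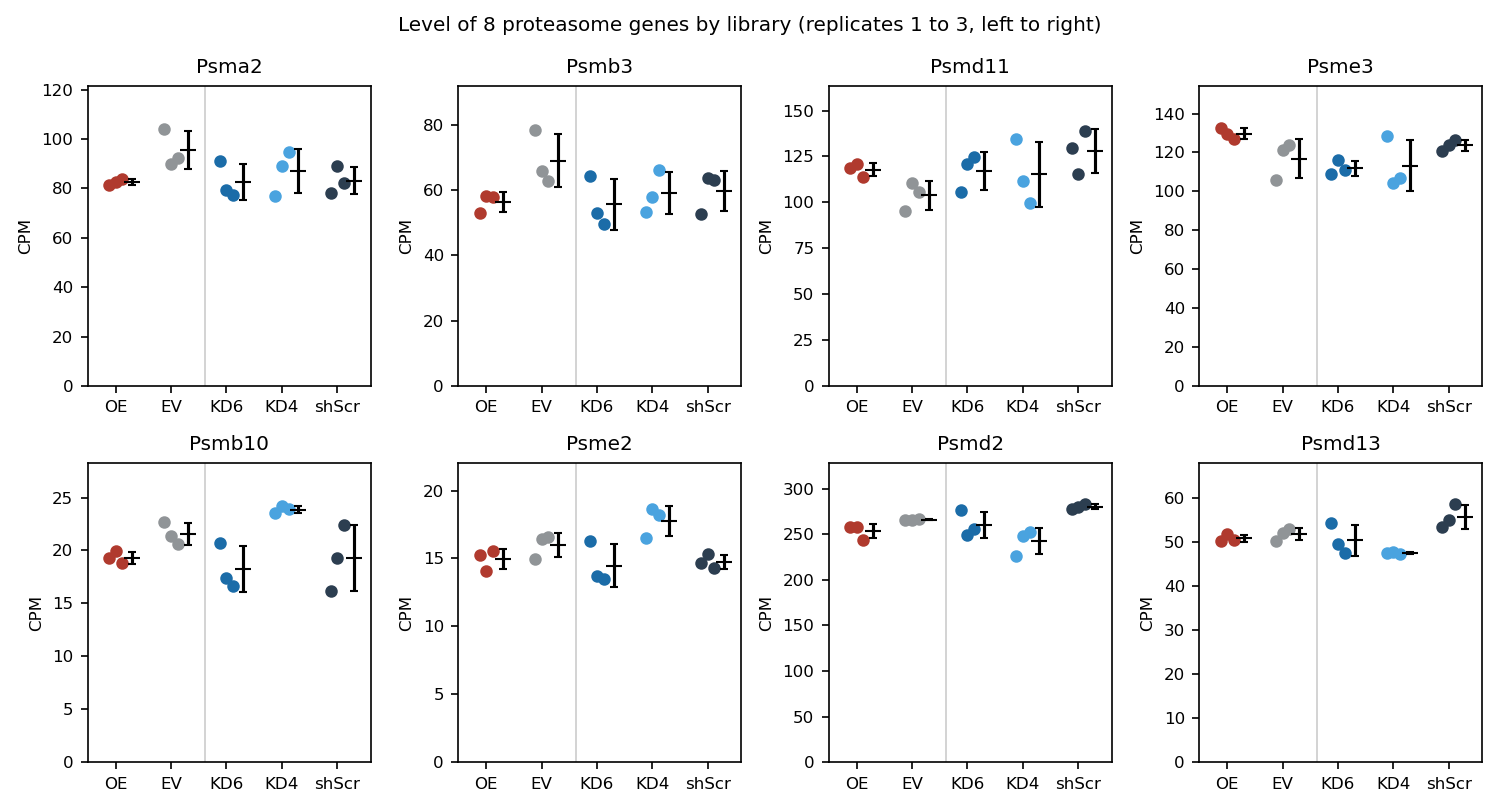
CPM of 8 genes in each library (points, replicates 1 to 3 from left to right within a line) with the mean and SD of each line (bars). Psmb10 and Psme2 are higher in all KD4 libraries than in all KD6 libraries, and Psmd2 is lower in all KD6 and KD4 libraries than in all shScr libraries.

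Psmb10 and Psme2, which interferon gamma is known to induce, had the smallest p between the hairpin lines. Psmb10 was at 20.8, 17.4 and 16.7 CPM in KD6, against 23.5, 24.2 and 23.9 CPM in KD4, and shScr libraries spanned both at 16.2, 19.2 and 22.4 CPM. Psme2, which forms an activator ring with Psme1, was at 16.3, 13.7 and 13.5 CPM in KD6, against 16.5, 18.6 and 18.2 CPM in KD4, with 14.7, 15.3 and 14.3 CPM in shScr. In both genes all KD6 libraries lay below all KD4 libraries, but neither passed: KD6 over KD4 gave a log2 change of -0.37 for Psmb10 (SE 0.12, adjusted p = 0.104) and of -0.28 for Psme2 (SE 0.09, adjusted p = 0.119). None of the 45 genes did, against 4.91% of all genes. With Psme4 (0.15) and Psmd10 (0.21), 4 genes had an unadjusted p under 0.05, against 17.4% of all genes. How many of all genes had hairpin lines that did not overlap was not counted. Psmb7 (-0.16), Psmb1 (-0.11), Psmd2 (0.10), Psmg4 (-0.17), Psme1 (-0.09), which interferon gamma induces as well, and Psmg2 (0.10) followed. Psmb8, another inducible subunit, was not among the 45 genes by the symbol rule but was measured. It was at 9.04, 6.77 and 5.51 CPM in KD6, 13.6, 15.9 and 15.1 CPM in KD4 and 11.96, 11.6 and 14.95 CPM in shScr. KD6 was lower than KD4 (log2 change -0.99, adjusted p = 0.004) and than shScr (-0.78, adjusted p = 0.023). The first of these calls held under all 15 alternatives, and the second was lost under 6, namely the replicate block and the removal of KD6 replicate 2 or 3 or of any shScr library (adjusted p = 0.0529 to 0.0876).

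The OE over EV change was then compared with the mean change of both hairpin lines over shScr, of which KD6 had no measured loss of the Smarcd1 transcript. This used transcript values summed per gene, which hold all 15 libraries in 1 table. The difference passed for none of the 45 genes (limma, smallest adjusted p = 0.153), against 1.9% of all genes. It was at an unadjusted p under 0.05 in 6 genes, against 18.7% of all genes. These were Psme3 (0.29), Psmg3 (-0.67), Psmb7 (-0.21), Psmc2 (0.17), Psma2 (-0.41) and Psme2 (-0.30). The gene tables did not show changes of this size for Psmg3, at -0.07 in OE over EV and -0.01 in KD over shScr, or for Psma2, at -0.20 and 0.03. The summed transcripts held 51.6 to 113% of the gene value of Psmg3, depending on the library. The values of Psmc3ip (-0.30), Psmc6 (-0.30), Psmb2 (-0.25) and Psmc3 (-0.14) followed. The OE libraries enter this difference too, so the 14 of 14 20S genes with a negative value do not add to the count above. Without KD4 replicate 1, Psme3 alone passed (0.33, adjusted p = 0.042).

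The controls EV and shScr, which differ in vector and in selection drug, differed for some of these genes. On the same summed values, 5 of the 45 genes passed, against 15.8% of all genes, and 32 were higher in EV, against 52.4% of all genes. Psma2 summed to 118, 79.9 and 80.3 CPM in EV, against 61.0, 72.2 and 64.6 CPM in shScr (log2 change 0.46, adjusted p = 0.035). Psmb2, a structural beta subunit, summed to 112, 91.6 and 93.1 CPM in EV, against 73.4, 80.5 and 76.7 CPM in shScr (0.36, adjusted p = 0.022). Every EV library was above every shScr library in both, as in 14 of the 45 genes, and EV replicate 1 was highest. The share of all genes with that order was not counted. The 20S chaperone gene Psmg3 (0.72, adjusted p = 0.017) and Psmc3ip (0.43, adjusted p = 0.018) were higher as well, and the ATPase gene Psmc2, at 73.7, 77.6 and 77.1 CPM in EV against 86.1, 85.3 and 89.7 CPM in shScr, was lower (-0.19, adjusted p = 0.021). Without EV replicate 1 none of these 5 passed, and neither did they without shScr replicate 1. Set side by side from the separate gene tables, the differences were 0.19 for Psmg3, 0.20 for Psma2, 0.35 for Psmb2, 0.37 for Psmc3ip and -0.18 for Psmc2, so those of Psmg3 and Psma2 were smaller there than in the sums of transcripts. The next genes by p were Psma6 (0.27), Psmd9 (0.24), Psme1 (0.17), Psmb10 (0.24) and Psma1 (0.15).

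Transcripts of the 45 genes numbered 126. Of the genes 7 had 1 listed transcript and 38 had at least 2, at most 6, and in 22 genes the leading transcript held at least 90% of the summed value. The lid gene Psmd13 and the inhibitor gene Psmf1 were the 2 genes without a transcript of at least 50%, with leading transcripts at 37.1% and 47.5%. No transcript passed in OE over EV (smallest adjusted p = 0.458, 12 at an unadjusted p under 0.05, against 9.65% of all 30220 transcripts), where 0% of all transcripts passed. None passed in KD over shScr (smallest adjusted p = 0.221, 7 at an unadjusted p under 0.05, against 12.02%), where 0.295% of all transcripts passed. The main transcript of Psma4, with 98.3% of the gene, was at 79.4, 84.8 and 82.0 CPM in OE, against 90.7, 96.0 and 93.3 CPM in EV (log2 change -0.18, adjusted p = 0.458). The main transcript of Psmc2, with 62.7% of the gene, was at 47.5, 46.5 and 48.2 CPM in KD6 and at 46.0, 51.7 and 45.7 CPM in KD4, against 57.5, 54.4 and 54.9 CPM in shScr (-0.22, adjusted p = 0.228). In both transcripts the groups did not overlap, and the share of all transcripts with that order was not counted.

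Across libraries the 20S genes moved together more than the 19S genes did. Over the 15 libraries the 91 pairs of 20S genes had a median Pearson r of 0.54 and 90.1% of them were positive. The 136 pairs of 19S genes had a median of 0.09, the 990 pairs of all 45 genes 0.15 and all pairs of genes held by both tables had 0.01. For the 20S genes the median was 0.81 over the 6 OE and EV libraries, 0.54 over the 9 KD and shScr libraries and 0.43 over the 14 libraries without EV replicate 1. The points of each r share libraries and lines, so these values describe the libraries and carry no test. Each r over 14 or 15 libraries, here and in the next paragraph, also sets levels of separately deposited gene tables side by side.

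**Figure D4:**
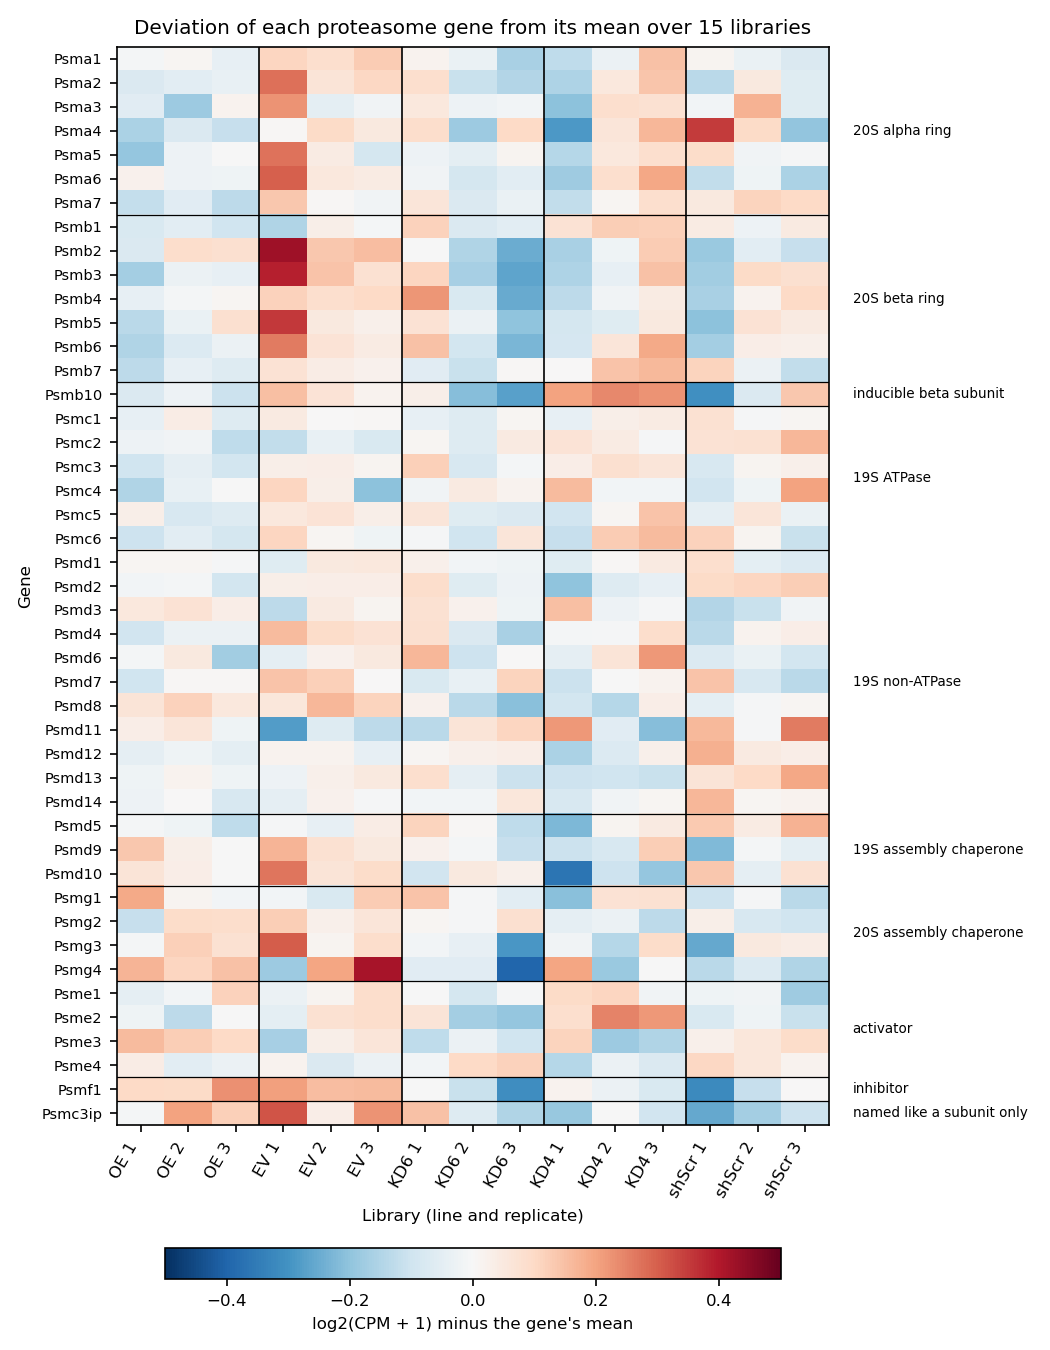
Deviation of log2(CPM + 1) of each of the 45 genes (rows, by class) from its own mean over 15 libraries (columns, by line and replicate), red above and blue below the mean. The 20S rows are mostly red in EV replicate 1 and mostly blue in OE libraries, and change within KD6 and within KD4 from one passage to another.

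Each gene was also set against the mean of the other 20S genes over the 15 libraries. Psma2 (r = 0.94), Psmb6 (0.90) and Psmb3 (0.89) followed that mean most closely within the core, whereas Psmb1 did not (0.04). Outside the core the ubiquitin receptor gene Psmd4 (0.83) and the ATPase gene Psmc5 (0.79) were the most alike. Psmd11 ran opposite to the core (-0.83), as did Psme3 (-0.61) and Psmd3 (-0.45), with the same direction as in OE over EV, where these libraries take part. Within KD4, Psmd11 was at 135 CPM in replicate 1, the library with the lowest 20S sum of that line, and at 99.6 CPM in replicate 3, the one with the highest.

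**Figure D5:**
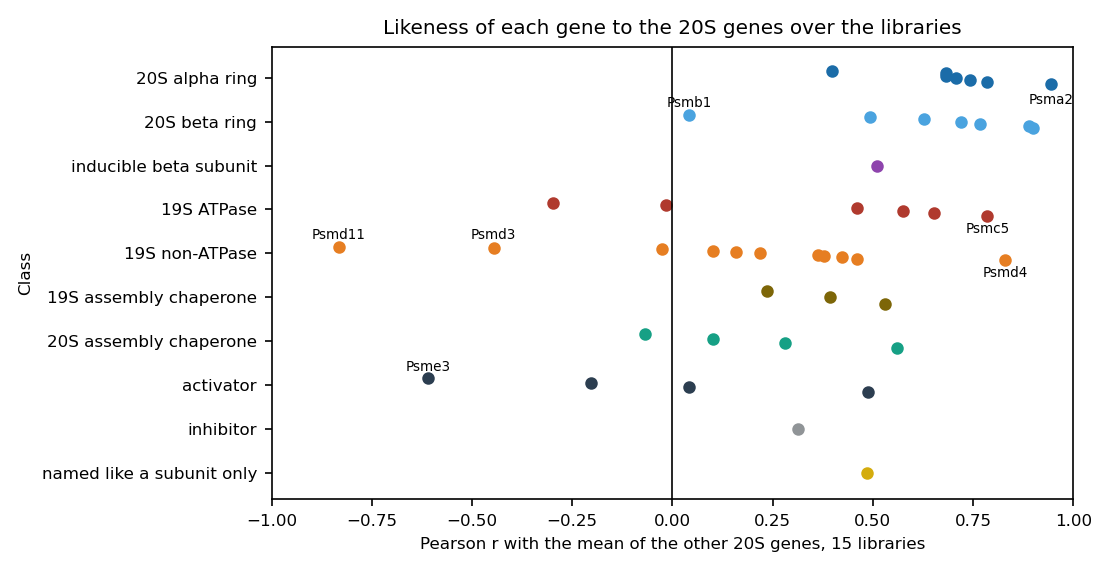
Pearson r of each of the 45 genes with the mean of the other 20S genes over 15 libraries, by class. The 20S genes lie at 0.40 and above apart from Psmb1, and Psmd11 lies lowest at -0.83.

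The genes outside the 45 whose pattern over the 15 libraries was most like the mean of the 31 20S and 19S genes were Nmt1 (r = 0.93), Tec (0.90), Obfc1 (0.87), Ppp1r11 (0.87), Bloc1s1 (0.87), Crcp (0.86), Cstb (0.86), Rbm3 (0.86), Scarna2 (0.86) and Gm8394 (0.86), of 13142 genes ranked on summed transcript values.

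Other genes of the pathway (31 of 33 listed genes were measured: assembly factors, ubiquitin shuttles, activating enzymes, proteasome-bound factors and regulators of transcription) gave no call in OE over EV, where 16 were lower and 3 had an unadjusted p under 0.05, against 1749 of all 13501 genes. Among the smallest p were those of the shuttle gene Ubqln2 (log2 change 0.40, adjusted p = 0.198) and of Pomp (-0.21, adjusted p = 0.279), followed by Psmb8 (-0.32) and Sem1 (-0.18), a small 19S subunit. Pomp, the maturation factor of the 20S core, was at 76.5, 85.6 and 86.2 CPM in OE, against 100.3, 94.0 and 92.8 CPM in EV. It was lower in every OE library, the order that 15 of the 45 genes showed. Nfe2l1, which is known to induce the proteasome genes, was at 330, 326 and 326 CPM in OE, against 335, 313 and 320 CPM in EV, and its groups overlapped (0.02, adjusted p = 0.859).

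In KD over shScr no gene of this list passed, and none had an unadjusted p under 0.05. Among the smallest p were those of Nfe2l2 (log2 change -0.26), Ddi2 (-0.13) and Ubqln1 (0.08). In KD4 taken alone 2 of the 31 genes passed, both lower, against 529 of all 13669 genes that passed as lower. Nfe2l2, a regulator of the antioxidant response that is also known to act on proteasome genes, was at 72.7, 78.4 and 77.2 CPM in KD4, against 115, 117 and 105 CPM in shScr (-0.55, adjusted p = 0.001). Ddi2, the protease that activates Nfe2l1, was at 119, 119 and 113 CPM in KD4, against 139, 134 and 142 CPM in shScr (-0.24, adjusted p = 0.027). The call of Nfe2l2 held under all 15 alternatives, whereas that of Ddi2 was lost under 7 of them, among them the removal of KD4 replicate 2 or 3 or of any shScr library (adjusted p = 0.0509 to 0.111). Uba6 (-0.20), Uchl5 (-0.19) and Ecpas (-0.16) came next and did not pass. In KD6 only Psmb8 of this list passed, lower as given above, against 119 of all 13669 genes that passed as lower. Zfand2a (0.24) and Ubqln1 (0.08) were among those after it that did not pass. KD6 exceeded KD4 in Nfe2l2 (0.58, adjusted p = 0.001) and Ddi2 (0.23, adjusted p = 0.046), with Zfand2a (0.30) and Uba6 (0.22) after them. Of all 13669 genes 344 passed as higher in KD6 than in KD4. The Nfe2l2 call held here too, and that of Ddi2 was lost under 12 of 15 alternatives, the removal of any 1 of the 9 libraries included (adjusted p = 0.059 to 0.188).

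Between the controls 6 genes of the list were higher and 2 lower in EV than in shScr, among them Ubqln1 (log2 change 0.25, adjusted p = 0.003), Nfe2l2 (0.25, adjusted p = 0.022), Psmb8 (-1.38, adjusted p = 0.031) and Pomp (0.31, adjusted p = 0.032). Of all genes 15.8% passed here, and these 2078 genes became 971 without EV replicate 1 and 990 with the replicate block. Ubqln1 passed under all 19 alternatives, whereas Nfe2l2 lost its call under 4, Psmb8 under 5 and Pomp under 7 of them, each without EV replicate 3 and without shScr replicate 3 among others (adjusted p = 0.0522 to 0.116 where lost). For the difference between the effects of OE and KD none passed and 3 had an unadjusted p under 0.05, against 18.7% of all genes. Ddi2 (0.18), Nfe2l2 (0.21) and Ubqln1 (-0.13) were among the smallest p. Several proteasome genes have processed copies elsewhere in the genome, and how the counting treated reads that fit more than 1 copy is not given in the sources used here.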

How the data were processed

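Messenger RNA of 15 libraries was sequenced. The deposited values are CPM, calculated by the authors, as 2 gene tables, the OE table with its EV control and the KD table with its shScr control, and 1 transcript table that joins all libraries. The submitters' processing notes name STAR 2.7.8a and mm39, whereas the study's methods name Tophat and mm9. Which of them made the values is not settled, and no coordinate was taken from the files. The values are not whole reads, so depth is unknown and no counting interval can be given. The lowest geometric mean in either gene table was 1.00 CPM, so low genes had been filtered out. The 15 columns holding the authors' own statistics were not used. Symbols were matched for 88.1% and 87.3% of gene identifiers.

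Values were transformed to log2(CPM + 1), so that changes of low genes are understated, and tested with limma 3.58.1 (R 4.3.3) with an intensity trend, p values being adjusted by the Benjamini-Hochberg method over the whole table that was fitted. A gene passed at an adjusted p under 0.05. The 10 genes with the smallest p in each comparison were named, with the gene of the smallest p and of the largest change of each class where the text describes classes, and the 5 smallest p of the other pathway genes, of which some are not reported here. Alternatives were a pseudocount of 0.1, a minimum mean of 5 CPM, quantile normalization, scaling by the median of ratios, no intensity trend, a replicate block and leaving out each library. The fits were checked on simulated data. Transcript lengths came from the GENCODE vM1 annotation, which covers an older build than the labels name, and promoters from RefSeq (GRCm38.p6). Protein sequences were not used here. Python 3.11.15, pandas 2.3.3 and matplotlib 3.10.9 were used for summaries and figures. The genes and lists were chosen with earlier results of these data known.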

Additional observations from a re-analysis of the deposited data

Results flagged for a closer look

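In the 6 KD libraries the CPM of the 45 genes and 3 sums over them, 48 quantities in all, were examined for a single library far from the other 5. Such a library was found for 2 quantities, and chance gives about 1 in 20. Psmc4, an ATPase of the 19S base, was at 78.0 CPM in KD4 replicate 1, against 68.9 to 72.0 CPM in the other 5 KD libraries. Psmd13 was at 54.2 CPM in KD6 replicate 1, against 47.1 to 49.4 CPM in the other 5.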

How the results depend on the processing

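No value with a call changed sign under any alternative. Medians near 0 did when 1 library was left out: over the 45 genes they ran from -0.06 to 0.00 for KD6 over shScr, -0.02 to 0.05 for KD4 over shScr, -0.02 to 0.02 for KD over shScr and -0.06 to 0.01 for KD6 over KD4, and 14 to 26 genes were lower in KD4 than in shScr. The median of KD over shScr was also below 0 under quantile normalization (-0.01) and under scaling by the median of ratios. The number of genes that passed stayed at 0 for OE over EV (12 alternatives), KD over shScr (16), KD6 over shScr and KD6 over KD4 (15 each) and for both transcript comparisons. Under quantile normalization 1 gene passed in KD4 over shScr, Psmd13 (log2 change -0.24, adjusted p = 0.0447), the median change became 0.0466 in EV over shScr and -0.0577 for transcripts in OE over EV. Leaving out 1 library at a time gave 0 to 1 genes for the difference between the OE and KD effects, 0 to 7 for EV over shScr (0 without EV replicate 1 or shScr replicate 1, 1 without shScr replicate 3) and transcript medians of -0.0471 to -0.0123 in OE over EV. With the replicate number as a block 1 gene passed in EV over shScr, where 5 had passed without it, and no other call among the 45 genes changed. Outside them the block ended the calls of Ddi2 in both comparisons, of Psmb8 in KD6 over shScr and of Nfe2l2 and Pomp in EV over shScr, and all-gene calls numbered 114 with the block and 364 without it in KD over shScr, 179 and 398 in KD6 over shScr, 626 and 1310 in KD4 over shScr, 349 and 671 in KD6 over KD4, 990 and 2078 in EV over shScr and 43 and 250 for the difference between effects. Libraries with the same number did not deviate together (correlations of their deviations -0.44 to 0.26), so the numbers were not taken to pair samples. Chosen after seeing the data, the count of genes lower in OE at an unadjusted p under 0.05 was also followed: it was 13, and 6 or 7 without EV replicate 1, OE replicate 1, OE replicate 3 or the intensity trend. With 3 libraries a group and unknown depth, small changes of single genes could not be resolved.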
